A study of Mus musculus with 24 samples.

Results

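Mature skeletal muscle carries a set of transcripts that encode its contractile filaments, the Z-discs that anchor them, the membranes that release calcium and the enzymes that supply ATP. 39 such genes were followed here in TC2Ras prostate tumors, out of 55401 gene identifiers in the deposited count table. The genes were chosen by name from a fixed list, and each of the 39 symbols matched 1 mouse identifier in GENCODE M21. By role they comprised 8 genes of the contractile filaments, 12 of the Z-disc and sarcomere upkeep, 9 of excitation-contraction coupling and calcium handling, and 10 of energy metabolism.

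TC2Ras is a mouse prostate adenocarcinoma line made from TRAMP-C2 cells with activated H-Ras and the mouse androgen receptor, and it was implanted in male C57/BL6 mice of 8 to 10 weeks. All animals received plasmid in muscle with the help of ultrasound (sonoporation), either an empty vector or a vector for interleukin-27 (IL-27), a cytokine used here as gene therapy; in the bone model the injected muscle was the tibialis anterior, which lies along the tibia. Subcutaneous (SC) tumors came from empty vector (control, n = 2) or IL-27 vector (n = 2) and were taken a week after implantation, without cabozantinib. SC cells were injected in each flank, and the labels do not say whether the 2 tumors of a group came from 1 mouse or 2. Intratibial tumors also received cabozantinib (cabo), a tyrosine kinase inhibitor given by mouth, or its vehicle polyvinylpyrrolidone (PvP), and were harvested on day 14 or at the end of the study (EOS). Dosing was daily and lasted for 14 days. Mice of the EOS groups were kept on to an ethical endpoint, on days not given in the sources used here. The day 14 groups were empty vector with PvP (control), IL-27 vector with PvP (IL-27), empty vector with cabo (cabo), and IL-27 vector with cabo (IL-27+cabo), with n = 3 each, and the same 4 EOS groups had n = 2 each. Intratibial tumors, made with TC2Ras-Luc cells, are named here by mouse number. All tumors arose from 1 cell line in mice of 1 sex, and RNA was taken from pieces of tumor, so that the cells of the surrounding limb that each piece held are not given in the sources used here.

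In a muscle fiber, thin filaments of alpha-actin slide along thick filaments of myosin between 2 Z-discs when calcium leaves the sarcoplasmic reticulum. The ryanodine receptor opens in response to the voltage sensor of the surface membrane, and the calcium pump Atp2a1 returns the ion to store. Creatine kinase and the glycogen and glycolytic enzymes keep ATP supplied, and myoglobin stores oxygen. These transcripts are switched on late, when myoblasts have fused, under MyoD family factors that bind the E-box and MEF2 factors that bind A and T rich sites.

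To show the sequences that stand before these genes, the 250 bases upstream of the RefSeq start (GRCm38.p6) are printed for 1 member of each role, the member with the highest level per kilobase of exon among those with a window. Pfkm and Eno3, well above 0 in every tumor, were left out of this choice. Capitals mark every match on either strand to the E-box CANNTG, the TATA box TATAAA, the MEF2 site or the CArG box bound by serum response factor, and no base fell in more than 1 match. Acta1, skeletal alpha-actin, lies on the minus strand with its window at chr8:123894776-123895025, which holds 2 E-boxes, 1 CArG box and 1 TATA box.
Acta1: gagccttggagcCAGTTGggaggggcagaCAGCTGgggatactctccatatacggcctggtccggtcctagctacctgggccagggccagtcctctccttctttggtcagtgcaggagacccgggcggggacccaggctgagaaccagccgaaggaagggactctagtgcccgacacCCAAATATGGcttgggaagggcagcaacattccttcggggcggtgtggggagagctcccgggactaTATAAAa
Klhl41, a stabilizer of nebulin, has its window on the plus strand at chr2:69669870-69670119, with 4 E-boxes and 1 MEF2 site.
Klhl41: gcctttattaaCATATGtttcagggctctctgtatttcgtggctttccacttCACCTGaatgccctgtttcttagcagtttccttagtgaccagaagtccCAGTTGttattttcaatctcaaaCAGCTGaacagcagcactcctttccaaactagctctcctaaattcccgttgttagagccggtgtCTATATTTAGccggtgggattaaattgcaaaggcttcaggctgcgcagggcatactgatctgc
Atp2a1, the fast fiber calcium pump, has its window on the minus strand at chr7:126463074-126463323, with 1 E-box.
Atp2a1: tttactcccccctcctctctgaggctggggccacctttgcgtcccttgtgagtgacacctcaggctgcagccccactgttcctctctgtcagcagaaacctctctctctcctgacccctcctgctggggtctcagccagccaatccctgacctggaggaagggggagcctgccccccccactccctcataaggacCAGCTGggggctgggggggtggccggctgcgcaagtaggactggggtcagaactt
Ckm, muscle creatine kinase, has its window on the plus strand at chr7:19410844-19411093, with 1 E-box.
Ckm: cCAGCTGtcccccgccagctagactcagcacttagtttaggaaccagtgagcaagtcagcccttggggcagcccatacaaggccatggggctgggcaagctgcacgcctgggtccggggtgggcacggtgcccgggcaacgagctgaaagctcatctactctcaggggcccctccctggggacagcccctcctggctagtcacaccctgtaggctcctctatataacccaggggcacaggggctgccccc

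Windows were at hand for 26 of the 39 genes. An E-box was present in 22 of the 26 (84.6%), against 66.2% of the 27025 windows of all genes, 1 for each gene and of the same length. The MEF2 site was found in 6 of 26 (23.1%, against 2.98% of all windows), the CArG box in 2 of 26 (7.69% against 1.39%), and TATAAA in 3 of 26 (11.5% against 12.9%). These matches describe letters in 250 bases and say nothing of a factor being bound.

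Depth was high and even, with 63729005 to 83782258 counts per library, and between 21269 and 24028 genes had a count above 0. Within groups, libraries correlated at r = 0.954 or more over genes, except that mouse 20 of the day 14 IL-27+cabo group correlated at 0.912 with both its group mates. In mouse 20, short transcripts were high and long ones low relative to mice 22 and 24, with a median of 0.65 on the log2 scale for all genes under 1500 bases of exon and -0.79 for those of 6000 or more. In the SC comparison, genes of low GC content were higher with IL-27 and genes of high GC content lower, so that the median log2 fold change of all genes ran from 0.78 below 46% GC to -2.60 at 56% or more. The tumor cells' own genes, represented by keratins and adhesion genes among others (6 genes), summed to between 62.8 and 351 CPM (a gene's counts scaled by the size of its library) in every tumor.

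The muscle genes took 0.0148% to 0.425% of all counts in a tumor, a range of more than 1 order of magnitude. At day 14 the mean log2 CPM of the 39 genes was -0.26 ± 1.56 (SD, n = 3) in control tumors, 1.52 ± 2.69 with IL-27, 4.18 ± 0.21 with cabo and 5.01 ± 0.71 with IL-27+cabo. CPM values here are scaled by the trimmed mean of M-values (TMM) over all 24 libraries, and log2 values add a prior count of 2. At EOS the means were -1.55 ± 0.69 in control tumors, -1.31 ± 0.24 with IL-27, 2.20 ± 1.83 with cabo and 1.11 ± 0.84 with IL-27+cabo (n = 2 each). SC tumors had -1.47 ± 0.87 under control and 2.90 ± 1.10 under IL-27 (n = 2 each). In bulk tumor RNA, fewer muscle fibers in a sample and less of these transcripts per fiber cannot be told apart.

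Single tumors made up these means unevenly. The day 14 IL-27 group held mice 4 and 6 at -0.41 and 0.38 and mouse 8 at 4.59, so that 2 tumors lay inside the control range of -1.79 to 1.33 and 1 lay above the cabo tumors. Day 14 cabo tumors were tightly grouped between 3.94 and 4.34. In the EOS cabo group, mouse 19 was at 3.49 and mouse 23 at 0.90. As shares of all counts, mouse 22 had 0.425% (exact 95% binomial interval 0.423 to 0.426%) and mouse 3, a day 14 control, 0.0148% (0.0145 to 0.015%), where the intervals cover counting error only.

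**Figure D1:**
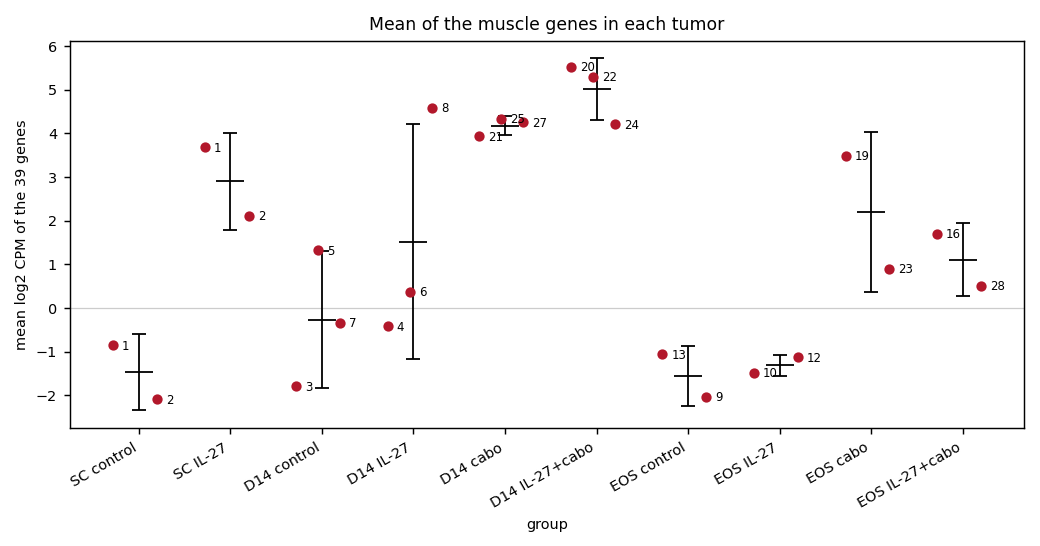
Mean log2 CPM of the 39 muscle genes (vertical axis) in each of the 24 tumors, by group (horizontal axis); points are tumors with their numbers, and black bars give the group mean and SD. The 6 day 14 tumors that received cabo sit between 3.94 and 5.53, and mouse 8 of the day 14 IL-27 group, at 4.59, sits within that range.

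Per kilobase of exon and averaged over the 24 tumors, Acta1 had the highest level of the set (124 CPM per kb), followed by Atp2a1 (35.4), Pfkm (33), Eno3 (33) and Tcap (23.8), and Ttn (0.274) and Asb16 (0.268) the lowest. Pfkm, Eno3, Jph1 and Srl were well above 0 in each tumor, and their levels spanned 3.12, 3.22, 2.45 and 2.96 on the log2 scale between the lowest and the highest tumor, against 13.61 for Tcap and 14.51 for Ckm. Pfkm and Eno3 encode glycolytic enzymes, Jph1 joins membranes at the calcium release sites, and Srl encodes sarcalumenin. Because of these 4 genes, the set as a whole is not restricted to transcripts near 0 in the tumors with the lowest muscle levels. Highest values fell in mouse 20 for 19 genes and in mouse 22 for 18, with mouse 8 highest for Actn3 and SC IL-27 tumor 1 for Ampd1.

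**Figure D2:**
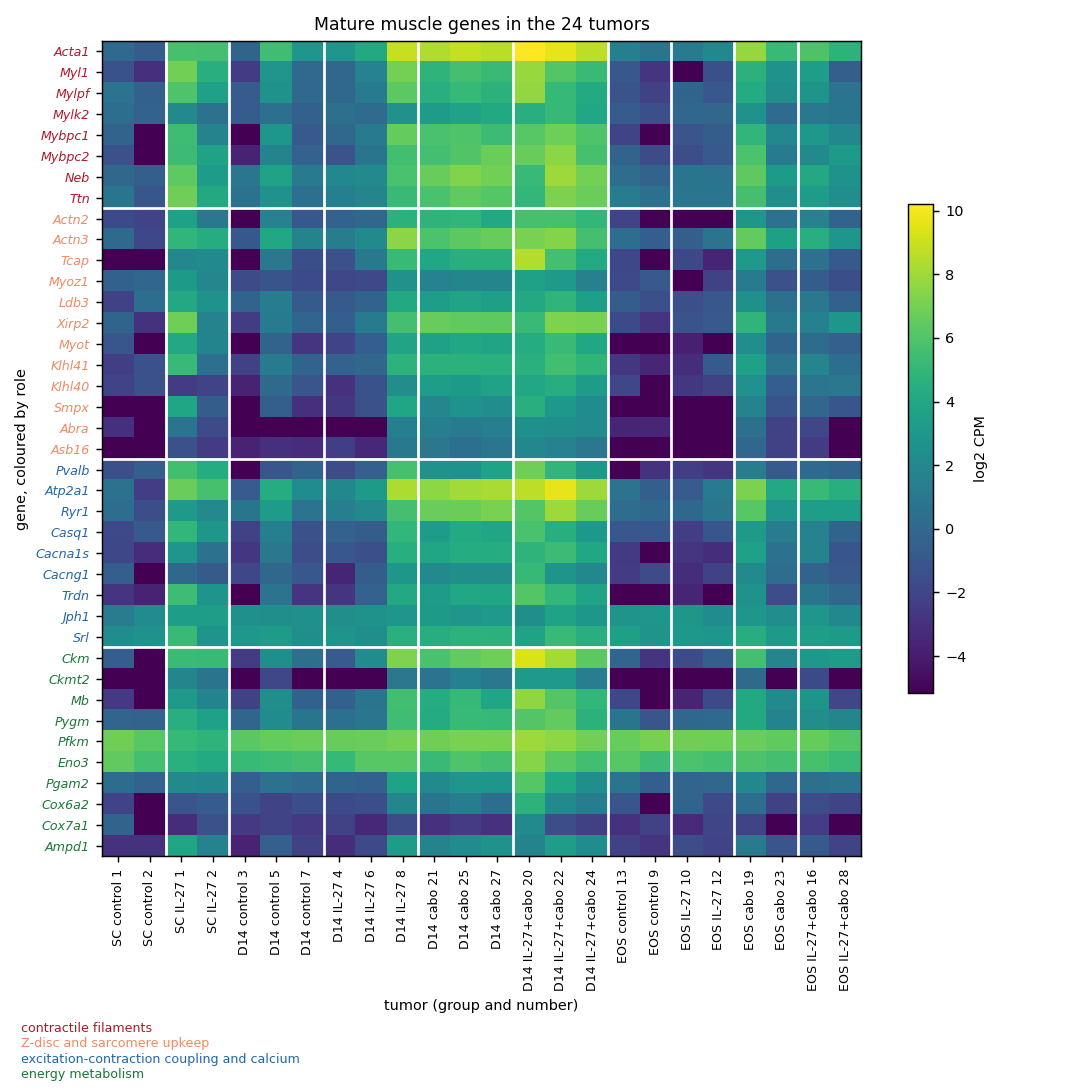
Log2 CPM (colour scale) of the 39 genes (rows, coloured by role) in the 24 tumors (columns, by group and tumor number), with white lines between groups and roles. Pfkm and Eno3 are bright in every column, while most other rows are bright in the day 14 cabo and IL-27+cabo columns and in mouse 8, mouse 19 and the SC IL-27 tumors.

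Among the contractile filament genes, Acta1, the actin of the thin filament, had 0.826, 44.6 and 7.35 CPM in day 14 control mice 3, 5 and 7, then 7.17, 17.9 and 456 CPM in IL-27 mice 4, 6 and 8. It had 334, 454 and 397 CPM in cabo mice 21, 25 and 27 and 1182, 807 and 410 CPM in IL-27+cabo mice 20, 22 and 24. No cabo-treated day 14 tumor overlapped the controls, whereas 2 of the 3 IL-27 tumors did. At EOS its values were 2.68 and 1.68 CPM in control mice 13 and 9, 2.18 and 3.85 in IL-27 mice 10 and 12, 216 and 35.9 in cabo mice 19 and 23, and 59.3 and 27.7 in IL-27+cabo mice 16 and 28. SC control tumors 1 and 2 had 1.05 and 0.6 CPM and SC IL-27 tumors 52.9 and 51.8.

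Mylpf, the regulatory light chain of fast myosin, had 0.596, 6.27 and 1.04 CPM in the day 14 controls and 0.928, 2.34 and 81.6 CPM with IL-27. With cabo it had 22.9, 34.4 and 26.4 CPM and with IL-27+cabo 212, 35.1 and 18.6 CPM. Mouse 20 stood far above the others of its group. EOS values were 0.405 and 0.188 CPM (control), 0.831 and 0.475 (IL-27), 19.2 and 5.25 (cabo), and 7.04 and 1.61 (IL-27+cabo), and SC values 1.6 and 0.72 (control) and 61.7 and 12.4 (IL-27).

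Myl1, an essential light chain of the same myosin, followed with 0.149, 7.2 and 1.05 CPM in day 14 controls, 0.9, 3.12 and 127 with IL-27, 28.4, 51.1 and 37.8 with cabo, and 228, 67 and 37.8 with IL-27+cabo. At EOS, Myl1 had 0.475 and 0.116 CPM in controls, 0 and 0.346 with IL-27, 25.9 and 6.36 with cabo, and 11 and 0.661 with IL-27+cabo. The SC tumors had 0.378 and 0.0933 CPM under control and 123 and 22.4 under IL-27. Mouse 8 again resembled the cabo-treated tumors, and mouse 28 was close to its EOS controls.

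Ttn encodes titin, the spring between Z-disc and thick filament and the longest transcript here (116825 bases of exon). It had 1.42, 6.67 and 1.35 CPM in day 14 controls, 2.77, 3.5 and 38.4 with IL-27, 55.1, 87.2 and 72.6 with cabo, and 32.6, 147 and 103 with IL-27+cabo. Mouse 20 was thus the lowest of its group for titin although it was the highest for Acta1 and both light chains. EOS values were 2.47 and 1.39 CPM (control), 1.81 and 1.76 (IL-27), 51.1 and 5.45 (cabo) and 9.77 and 5.03 (IL-27+cabo), and SC values 1.73 and 0.453 (control) and 116 and 17.7 (IL-27). The other 4 filament genes, the myosin kinase Mylk2, the myosin binding proteins Mybpc1 and Mybpc2 and nebulin (Neb), were between 0 and 13.1 CPM in day 14 controls and between 9.99 and 247 CPM in the 6 cabo-treated day 14 tumors.

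Among the Z-disc genes, Tcap, or telethonin, which caps titin, had 0 CPM in day 14 control mouse 3 and 1.89 and 0.328 CPM in mice 5 and 7. The IL-27 tumors had 0.366, 2.03 and 38.6 CPM, the cabo tumors 15.7, 22.6 and 23.4, and the IL-27+cabo tumors 348, 48 and 19.2. Mouse 20 had the highest value of all 24 tumors by a wide margin. At EOS, Tcap had 0.251 and 0 CPM (control), 0.258 and 0.0576 (IL-27), 8.51 and 1.25 (cabo), and 1.43 and 0.542 (IL-27+cabo). SC control tumors had no count, which with 3 counts per library as the floor puts the mean of the SC IL-27 tumors (3.82 and 4.3 CPM) at least 104-fold higher.

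Actn3, the alpha-actinin of fast fibers, had 0.488, 16.7 and 3.17 CPM in day 14 controls and 2.41, 4.59 and 188 CPM with IL-27. The cabo tumors had 58.7, 82.3 and 99.5 CPM and the IL-27+cabo tumors 140, 167 and 50.2. Mouse 8 therefore held the highest Actn3 value of all 24 tumors. EOS tumors had 1.3 and 0.651 CPM (control), 0.659 and 1.56 (IL-27), 93.1 and 11.7 (cabo), and 22.2 and 7.47 (IL-27+cabo), and SC tumors 1.03 and 0.253 (control) and 31.1 and 20.5 (IL-27).

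Xirp2, an actin-binding repeat protein of the muscle attachment sites, had 0.149, 2.27 and 0.888 CPM in day 14 controls, 0.633, 2.2 and 51.1 with IL-27, 98.5, 86.6 and 84.2 with cabo, and 37.7, 149 and 140 with IL-27+cabo. All 6 cabo-treated tumors lay far above each day 14 control. At EOS it had 0.279 and 0.116 CPM (control), 0.401 and 0.519 (IL-27), 30 and 2.01 (cabo), and 2.99 and 7.68 (IL-27+cabo). SC tumors had 0.845 and 0.107 CPM under control and 113 and 3.26 under IL-27, a wide gap between replicates.

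Abra, an actin-binding protein of striated muscle, was scarce and had 0 CPM in the 3 day 14 controls and in IL-27 mice 4 and 6, against 2.71 CPM in mouse 8. The cabo tumors had 2.7, 2.08 and 2.63 CPM and the IL-27+cabo tumors 5.95, 5.5 and 4.65 CPM, with means at least 61.6-fold and 134-fold above the control floor of 3 counts per library. EOS tumors had 0.0559 and 0.0579 CPM (control), 0 and 0 (IL-27), 1.4 and 0.201 (cabo), and 0.245 and 0 (IL-27+cabo). SC controls had 0.0883 and 0 CPM and SC IL-27 tumors 1.63 and 0.31. The other 8 genes of this role, which include the alpha-actinin Actn2, the calsarcin Myoz1, the Z-disc adaptors Ldb3 and Myot, the kelch proteins Klhl40 and Klhl41, Smpx and the ubiquitin ligase adaptor Asb16, were at 0 to 3.1 CPM in day 14 controls and at 1.32 to 53.1 CPM in the cabo-treated day 14 tumors.

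Among the calcium genes, Atp2a1 had 0.555, 20.4 and 4.95 CPM in day 14 controls, 4.04, 9.21 and 320 with IL-27, 194, 268 and 300 with cabo, and 414, 787 and 244 with IL-27+cabo. The cabo-treated tumors were all far above the highest control. At EOS it had 1.61 and 0.665 CPM (control), 0.573 and 2.09 (IL-27), 143 and 17.5 (cabo), and 37.1 and 23 (IL-27+cabo). SC tumors had 1.48 and 0.173 CPM (control) and 109 and 53.7 (IL-27).

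Pvalb encodes parvalbumin, the calcium buffer of the fastest fibers. It had 0, 0.425 and 0.793 CPM in day 14 controls, 0.295, 0.702 and 53.3 with IL-27, 5.99, 6.7 and 13.7 with cabo, and 118, 31.3 and 8.12 with IL-27+cabo. In this case mouse 8 exceeded all 3 cabo tumors. EOS values were 0 and 0.101 CPM (control), 0.172 and 0.115 (IL-27), 2.37 and 0.547 (cabo), and 1.02 and 0.832 (IL-27+cabo), and SC values 0.353 and 0.666 (control) and 47.6 and 20.8 (IL-27).

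Ryr1, the calcium release channel, had 1.69, 10 and 1.56 CPM in day 14 controls, 2.62, 4.21 and 50.2 with IL-27, 102, 109 and 136 with cabo, and 68, 246 and 98.3 with IL-27+cabo. Its values at EOS were 1.23 and 0.955 CPM (control), 0.974 and 1.8 (IL-27), 75.3 and 7.48 (cabo), and 11.1 and 10.6 (IL-27+cabo). In SC tumors it had 1.24 and 0.333 CPM (control) and 8.84 and 4.17 (IL-27). Mouse 20 was again the lowest of its group for this long transcript.

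Casq1, calsequestrin, which holds calcium in the store, had 0.203, 2.7 and 0.369 CPM in day 14 controls, 0.774, 0.609 and 32 with IL-27, 9.75, 19.2 and 15.5 with cabo, and 55.6, 22.2 and 8.02 with IL-27+cabo. At EOS it had 0.475 and 0.477 CPM (control), 0.172 and 0.447 (IL-27), 8.62 and 2.53 (cabo), and 3.15 and 0.819 (IL-27+cabo), and in SC tumors 0.265 and 0.547 (control) and 32.8 and 7.92 (IL-27). Of the other 5 genes, the channel subunits Cacna1s and Cacng1 and triadin (Trdn) were at 0 to 1.88 CPM in day 14 controls and 3.92 to 69.1 CPM in the cabo-treated tumors. Jph1 was at 5.56 to 5.85 CPM in the controls and 5.55 to 13.1 CPM in those tumors, and Srl at 5.66 to 10.1 and 13.2 to 37.8 CPM.

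Among energy genes, Ckm had 0.149, 5.68 and 1.39 CPM in day 14 controls, 0.563, 4.68 and 149 with IL-27, 55.1, 91.9 and 111 with cabo, and 649, 266 and 81.4 with IL-27+cabo. Its values at EOS were 0.88 and 0.116 CPM (control), 0.287 and 0.663 (IL-27), 51.7 and 3.51 (cabo), and 8.02 and 9.63 (IL-27+cabo). SC tumors had 0.643 and 0 CPM (control) and 39.3 and 36.6 (IL-27), with close replicates under IL-27.

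Mb, myoglobin, the oxygen store, had 0.203, 5.41 and 0.724 CPM in day 14 controls, 0.731, 1.64 and 47 with IL-27, 20, 35.7 and 15.4 with cabo, and 199, 69.7 and 32.6 with IL-27+cabo. EOS tumors had 0.251 and 0 CPM (control), 0.0573 and 0.274 (IL-27), 17.8 and 4.25 (cabo), and 6.84 and 0.238 (IL-27+cabo), so that mouse 28 lay within the control range. SC tumors had 0.139 and 0 CPM under control and 8.77 and 3.42 under IL-27.

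Pygm, the muscle glycogen phosphorylase, had 0.867, 4.7 and 1.72 CPM in day 14 controls, 1.41, 1.79 and 44.1 with IL-27, 19.2, 36.9 and 35.1 with cabo, and 67.3, 91.6 and 25.7 with IL-27+cabo. At EOS, Pygm had 1.7 and 0.463 CPM (control), 0.96 and 1.04 (IL-27), 18.2 and 3.24 (cabo), and 5.22 and 3.53 (IL-27+cabo), and in SC tumors 0.883 and 0.813 (control) and 23.4 and 12.4 (IL-27). Of all members it departed least from the mean of the set (SD of the departure 0.42 on the log2 scale over 24 tumors).

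Pfkm, the muscle phosphofructokinase, behaved otherwise. It had 77.8, 95.9 and 103 CPM in day 14 controls, 97.8, 103 and 129 with IL-27, 119, 139 and 136 with cabo, and 248, 197 and 120 with IL-27+cabo. At EOS it had 97.4 and 131 CPM (control), 116 and 115 (IL-27), 105 and 87.7 (cabo), and 96.5 and 67.2 (IL-27+cabo). In SC tumors it had 119 and 75 CPM under control and 35 and 28.6 under IL-27, the opposite order to Pygm. Enolase Eno3 lay between 18.4 and 172 CPM everywhere, while the mitochondrial creatine kinase Ckmt2, phosphoglycerate mutase Pgam2, the AMP deaminase Ampd1 and the cytochrome oxidase subunit Cox6a2 were at 0 to 1.44 CPM in day 14 controls and 1.3 to 71.6 CPM in the cabo-treated day 14 tumors. Cox7a1, another oxidase subunit, was at 0.82 CPM or less in 23 tumors and at 4.5 CPM in mouse 20.

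Most muscle genes were higher with cabo than in controls at day 14. Of the 38 members tested by edgeR's quasi-likelihood test over 18627 genes, 21 rose at an adjusted p below 0.05 (Benjamini-Hochberg, as in all adjusted values below) and 0 fell, against 1.2% of all genes called higher. The median log2 fold change of the members was 4.33 and that of all genes -0.01, and 38 of 38 estimates were above 0. At an unadjusted p below 0.05, 37 members were higher (9.64% of all genes). In 37 of 39 members the 3 cabo tumors all lay above the 3 controls, as they did in 12.8% of 22301 genes; Eno3 and Cox7a1 overlapped.

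By role, 4 of 8 filament genes (Mylk2, Ttn, Neb, Mybpc2), 8 of 12 Z-disc genes, 4 of 9 calcium genes (Srl, Cacng1, Ryr1, Cacna1s) and 5 of 9 tested energy genes (Pgam2, Cox6a2, Pygm, Ckm, Ampd1) rose with cabo. The smallest p belonged to Myoz1, which had 3.49 ± 0.345 CPM with cabo and 0.328 ± 0.0741 CPM in controls (log2 fold change 3.40 ± 0.28 SE, edgeR adjusted p = 0.00314). Abra (2.47 ± 0.338 CPM) and Asb16 (1.65 ± 0.286 against 0.0754 ± 0.0189 CPM, log2 fold change 4.41 ± 0.38) had the same adjusted p of 0.00314. The other 17 members tested had edgeR adjusted p-values of 0.0602 to 0.64, among them Acta1, picked here for its level, with a log2 fold change of 4.47 ± 1.13 (adjusted p = 0.0997).

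This count depended on the fit and on single tumors. It was 1 with all 24 tumors in 1 fit, 5 with no filter on low counts and 31 by DESeq2 (4.61% of all genes). Without control mouse 5, the control with the highest muscle level, 34 members rose with cabo, whereas 6 did without control mouse 7 and 7, 5 and 5 did without cabo mice 21, 25 and 27. The direction did not turn, and the median log2 fold change of the members stayed between 3.72 and 5.67 when any 1 tumor was left out.

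With IL-27+cabo at day 14, 3 of 39 members rose in edgeR's test, namely Mylk2 (25.2 ± 9.53 against 0.887 ± 0.387 CPM, log2 fold change 4.83 ± 0.49), Abra (5.37 ± 0.661 CPM) and Asb16 (3.03 ± 1.1 CPM, 5.31 ± 0.53), each at an adjusted p of 0.0406, with 0.0213% of all 18750 genes called higher. At an unadjusted p below 0.05, 38 members were higher against 4.23% of all genes, and the 3 treated tumors lay above the 3 controls for 36 members against 7.02% of all genes. The median log2 fold change was 4.97. Without mouse 20, 9 members rose, and 0 did when any other tumor of this comparison was left out; the median was 4.91 without mouse 20. DESeq2 called 32 of the 39 members higher (1.65% of all genes).

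With IL-27 alone at day 14, 0 of 36 tested members passed edgeR's threshold, as did 0% of all genes in the upward direction. 3 members, Pvalb (log2 fold change 5.46 ± 2.04), Xirp2 (4.01 ± 1.60) and Mylk2 (1.68 ± 0.69), were higher at an unadjusted p below 0.05 (0.913% of all genes), and DESeq2 called 0 (0.0108%). For 0 of 39 members did all 3 IL-27 tumors lie above all 3 controls (3.48% of all genes). The median log2 fold change of 3.03 turned to -0.38 without mouse 8, so that its direction rested on that tumor.

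**Figure D3:**
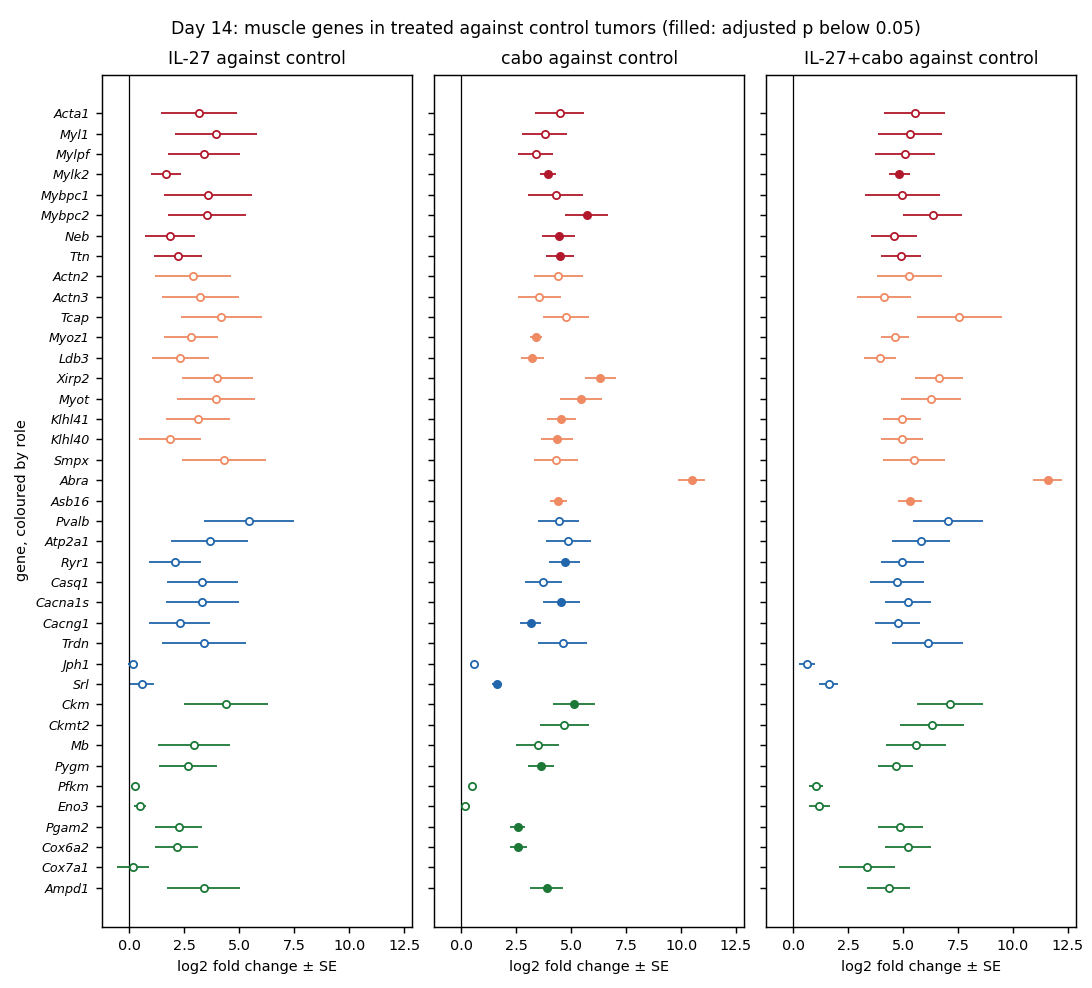
Log2 fold change against day 14 control (horizontal axis) with its standard error for the members (vertical axis) under IL-27, cabo and IL-27+cabo, coloured by role, with filled points for an edgeR adjusted p below 0.05; Abra, at 0 in the controls, has a fitted value that is no bound. All cabo and IL-27+cabo estimates lie above 0, 21 and 3 of them filled, and 0 of the IL-27 estimates are filled.

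At EOS, after dosing had ended, the contrast with control remained large for cabo but was carried by 2 tumors per group. Under cabo the median log2 fold change of the 39 members was 5.26 (4.82 with genes at 0 in a whole group set at their bound), 29 members were higher at an unadjusted p below 0.05 (4.54% of all genes), and 0 passed the adjusted threshold in edgeR (0% of all genes called higher), where DESeq2 called 24 (0.849% of all genes). Acta1 had 126 ± 127 CPM with cabo against 2.18 ± 0.71 CPM (log2 fold change 5.86 ± 0.93, edgeR adjusted p = 0.404). The same adjusted p held for Mylpf (12.2 ± 9.88 against 0.297 ± 0.153 CPM, 5.37 ± 0.98) and for Myot (2.96 ± 3.01 CPM against 0). Both cabo tumors lay above both controls for 30 members, as they did for 19.6% of all genes. Without mouse 19 the median was 2.79, and it reached 6.23 without control 13.

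IL-27+cabo at EOS had a median of 3.64 on the log2 scale (3.33 at the bounds), and 23 members were higher at an unadjusted p below 0.05 (7.36% of all genes), 0 at the adjusted threshold (0% of all genes) and 14 by DESeq2 (2.42%). Acta1 had 43.5 ± 22.3 CPM (log2 fold change 4.34 ± 0.87, edgeR adjusted p = 0.178). Myot, with 0.921 ± 0.331 CPM against 0, and Atp2a1, with 30 ± 9.95 against 1.14 ± 0.665 CPM (4.74 ± 1.09), had edgeR adjusted p-values of 0.184 and 0.191. Both treated tumors were above both controls for 27 members (18.7% of all genes). The median was 1.93 without mouse 16 and 4.52 without control 13. With IL-27 alone the median was 0.08 (0.00 at the bounds), 0 of 39 members passed at an adjusted threshold (0% of all genes called higher) or at an unadjusted p below 0.05 (1.57%), and DESeq2 called 0 (0.0599%).

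From day 14 to EOS the members' median was lower in each treatment, and 0 members passed edgeR's adjusted threshold in any of the 4. Dosing with cabo or PvP had ended between these times. In control tumors the median log2 difference over 33 tested members was -2.04, with 3 members lower at an unadjusted p below 0.05 (7.22% of all genes, and 0.104% lower at the adjusted threshold), and it was -0.61 without day 14 mouse 5 and -3.24 without EOS mouse 13. Those 3 were Klhl41 (-3.55 ± 1.10), Mylpf (-3.16 ± 1.12) and Neb (-2.53 ± 0.93), with edgeR adjusted p-values of 0.27 to 0.328. In IL-27 tumors it was -5.15 over 37 members (-4.93 at the bounds), with 25 lower (3.08% of all genes, and 0% adjusted), and -1.33 without mouse 8. The smallest p-values there were those of Actn2 and Asb16, both at 0 at EOS, and Myot (-7.74 ± 2.42), each with an edgeR adjusted p of 0.818. In cabo tumors it was -1.49, with 13 lower (9.53%, and 1.14% adjusted) and the smallest p-values for Pfkm (-0.44 ± 0.11), Pvalb (-2.58 ± 0.67) and Actn2 (-2.45 ± 0.65) at edgeR adjusted p-values of 0.116 to 0.127. Of the 6 tendon genes 2 fell in the same test, Fmod (-4.09, edgeR adjusted p = 0.00523) and Tnmd, and the list went from 109 to 162 CPM at day 14 to 9.97 to 26.5 CPM at EOS; its part in the result was not tested. Without mouse 19, 32 members fell and the median was -3.60, and without mouse 23, 1 fell and the median was -0.73.

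The IL-27+cabo tumors had a median difference of -4.11, all 39 estimates below 0 and 36 members lower at an unadjusted p below 0.05 (2.79% of all genes, and 0% adjusted). Mylk2 went from 25.2 ± 9.53 CPM at day 14 to 1.84 ± 0.16 CPM at EOS (log2 difference -3.78 ± 0.49, edgeR adjusted p = 0.372), and Myot (-4.73 ± 0.59) and Mybpc1 (-3.83 ± 0.53) had edgeR adjusted p-values of 0.353 and 0.392. Leaving out 1 tumor gave medians of -4.72 to -3.68. DESeq2 called 34 members lower here (1.28% of all genes), beside 3 in control (2.93%), 2 in IL-27 (0.398%) and 4 in cabo tumors (5.42%). Whether a treatment's effect differed between the times was tested as an interaction, chosen after the data were seen, and 0 members passed in edgeR for IL-27, cabo or IL-27+cabo, where 0, 0 and 0.00928% of all genes were called with a lower effect at EOS. At an unadjusted p below 0.05 the effect was lower for 2, 1 and 7 members, against 0.923, 2.06 and 5.26% of all genes. DESeq2 called 1, 1 and 2 members, against 0.0139, 0.0835 and 0.339%.

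In SC tumors 26 of 39 members rose with IL-27 (3.52% of 19360 genes were called higher) and 2 fell (16.5% called lower). Acta1 had 52.4 ± 0.82 against 0.823 ± 0.316 CPM (log2 fold change 6.01 ± 0.47, edgeR adjusted p = 0.00138), and Pvalb 34.2 ± 18.9 against 0.51 ± 0.222 CPM (6.09 ± 0.67, adjusted p = 0.00197), an adjusted p that Tcap, at 0 in the controls, shared. The 2 that fell were Pfkm (31.8 ± 4.52 against 97.2 ± 31.4 CPM, log2 fold change -1.59 ± 0.36) and Eno3 (21.4 ± 4.16 against 69.3 ± 27.6 CPM, -1.67 ± 0.4), with edgeR adjusted p-values of 0.0237 and 0.0275.

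By role, 6 of 8 filament, 8 of 12 Z-disc, 6 of 9 calcium and 6 of 10 energy genes rose. The median log2 fold change of the members was 5.53 (5.36 at the bounds, 5.38 with the GC and length trend removed, and 3.27 without IL-27 tumor 1). It ran from 6.58 for the 6 members under 46% GC through 5.92 and 4.61 to 4.22 for the 8 members at 56% or more, beside 0.78, 0.12, -1.03 and -2.60 for all genes in the same GC classes. With the GC and length trend removed, 0 members fell. Leaving out 1 tumor gave 13 to 30 members higher, with 13 without control 1 and 16 without control 2. Genes of marrow granules moved with this group, at 0.883 to 1.97 CPM summed over 6 genes in controls and 37.5 to 37.6 CPM with IL-27, 5 of 6 rising. In the same test, where 16.5% of all genes were called lower, 2 of 6 tumor epithelium genes fell (Hras by 3.89 and Krt8 by 3.81 on the log2 scale, with the list at 93.5 to 143 CPM in controls and 62.8 to 91.3 CPM with IL-27). Of the smooth muscle, nerve, tendon and bone cell lists 1 gene each fell, of 6, 6, 5 and 4 tested (Smtn, Prx, Scx and Col1a1), while 3, 3, 1 and 2 genes of these lists had estimates above 0 and 0 rose. The part of any of these in the result was not tested.

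Tests of any difference set the groups against the spread between their tumors. Over the 4 day 14 groups 1 member passed, Mylk2 (edgeR adjusted p = 0.039), against 0.141% of all genes, followed by Asb16 and Cox6a2 (0.292 each), and 30 had an unadjusted p below 0.05 (8.67%). Without mouse 8, 21 members passed, without mouse 20 it was 1, and without any other tumor 0. DESeq2 called 11 (3.33%). Over the 4 EOS groups 0 passed (0% of all genes; Acta1, Myot and Atp2a1 had an edgeR adjusted p of 0.227), with 30 below an unadjusted p of 0.05 (10.4%), and DESeq2 called 24 (5.43%). Over all 8 intratibial groups 9 passed (1.06%), with edgeR adjusted p-values of 0.00272 for Mylk2, 0.0261 for Ryr1 and 0.029 for Xirp2, and 37 had an unadjusted p below 0.05 (11.7%), and DESeq2 called 36 (9.24%). Leaving out 1 tumor gave 1 to 35, with 35 without mouse 8, 8 without mouse 20 and 1 without any 1 of day 14 mice 7, 21, 25 and 27 or EOS mice 9, 10, 12 and 13.

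As a description, the members varied more than most genes both within and between groups. Over the 20 intratibial tumors the median member had a within-group SD of 1.72 on the log2 scale, an SD of group means of 2.64 and 76.4% of its sum of squares between groups, beside 0.52, 0.34 and 39.3% for the median of 22301 genes. 33 members had a within-group SD above the 90th percentile of all genes, which was 1.24. 36 of 39 had over 50% of the sum of squares between groups, as did 28.3% of all genes.

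The extremes were Pfkm with the lowest within-group SD (0.30) and Mybpc1 with the highest (2.38), and Eno3 with the lowest share between groups (33.7%) and Mylk2 with the highest (89.4%). At day 14 the median member had a within-group SD of 1.93 and 68.3% between groups, against 0.55 and 27.4% for the median of all genes, and at EOS 1.25 and 76.4%, against 0.33 and 47.9%. For the mean of the members over the 20 intratibial tumors the pooled within-group SD was 1.44 and the SD of the group means 2.40, or 1.49 and 2.35 without mouse 20.

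**Figure D4:**
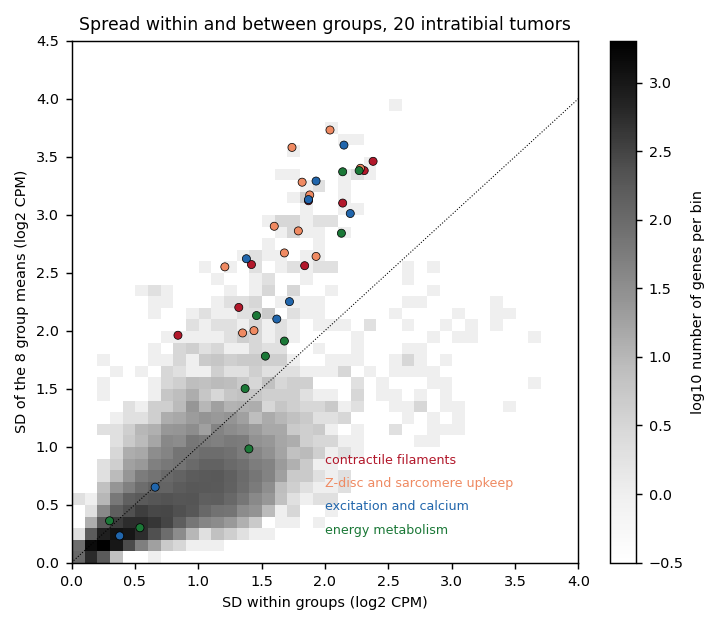
SD of log2 CPM between tumors of a group (horizontal axis) and SD of the 8 group means (vertical axis) over the 20 intratibial tumors, with points for the 39 members coloured by role, grey squares for the number of genes past the filter (log10 scale) and a dotted line where both SDs are equal. Most members lie above the bulk of genes on both measures, with medians of 1.72 within and 2.64 between groups against 0.52 and 0.34.

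The members moved together across the intratibial tumors, which share treatment groups. Pearson's r of a member with the mean of the other 38 had a median of 0.96 over 20 tumors, and 32 members were over 0.9. Pygm, Acta1 and Atp2a1 (0.99 each) were highest, and Cox7a1 (0.41), Eno3 (0.47), Jph1 (0.50) and Pfkm (0.63) were lowest. The SD of the departure from the mean of the set over 24 tumors was smallest for Pygm (0.42), Actn3 (0.72) and Casq1 (0.74) and largest for Eno3 (2.52), Pfkm (2.48) and Cox7a1 (2.45).

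Transcript length ordered the departures of mouse 20. Against the mean of mice 22 and 24, the 9 members under 1500 bases of exon had a median log2 difference of 2.97 and were all higher, led by Cox7a1 at 4.06. The 14 members of 1500 to 3000 bases had 0.89, the 9 of 3000 to 6000 bases -0.08, and the 7 longer ones -1.20, with Neb at -2.25, Xirp2 at -1.93 and Ttn at -1.92. All genes of those classes had 0.65, 0.31, -0.19 and -0.79, falling with length as well. Trdn (1.70) and Cacna1s were the 2 of the 7 longest that were higher in mouse 20.

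**Figure D5:**
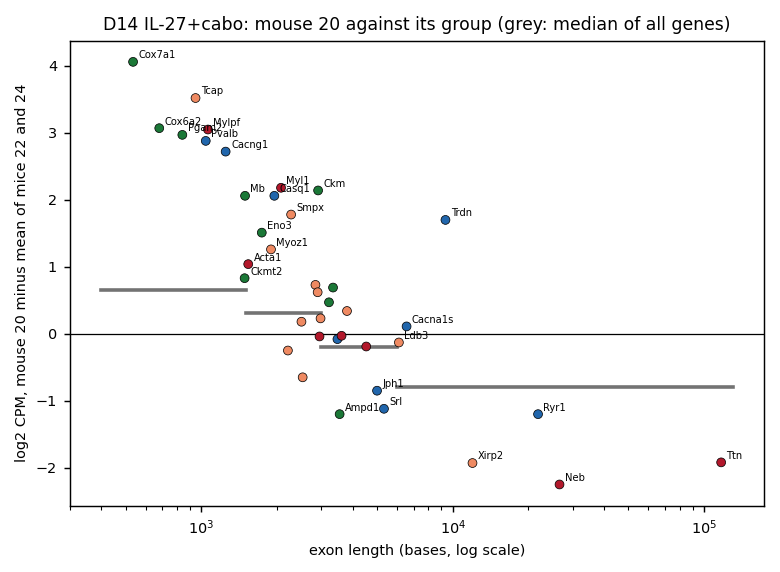
Log2 CPM of each member in mouse 20 minus the mean of mice 22 and 24 (vertical axis) against exon length in bases (horizontal axis, log scale), coloured by role, with grey bars for the median of all genes in each length class. Members under 1500 bases lie above 0 with a median of 2.97, and the 7 members of 6000 bases or more have a median of -1.20.

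Other muscle genes, listed apart from the 39, were counted in the same comparisons. With cabo at day 14, when 1.2% of all genes were called higher, 8 of 17 tested further sarcomere genes rose, with Myom1 of the M-band at a log2 fold change of 2.78, the tropomodulin Tmod4 at 4.13 and the fast myosin Myh4 at 6.07. 6 of 9 tested further metabolic genes rose, among them Eef1a2 (2.81), the adenylosuccinate synthase Adssl1 (0.95) and the glucose transporter Slc2a4 (3.73). Of 11 tested further excitation and calcium genes 0 passed and 6 were higher at an unadjusted p below 0.05 in edgeR (9.64% of all genes).

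Both ubiquitin ligases of muscle wasting, Fbxo32 (2.18) and Trim63 (5.32), rose with cabo. Of 8 tested myogenic regulators and embryonic myosins, 1 rose, the regulator Myf6 (4.75). In edgeR's test of IL-27+cabo at day 14, 0 genes of these 5 lists passed, with 16 of 19, 7 of 10, 6 of 11, 2 of 2 and 3 of 8 tested genes higher at an unadjusted p below 0.05 for the sarcomere, metabolic, excitation, ligase and myogenic lists, against 4.23% of all genes. At EOS, 0 of 8 tested genes of the myogenic list passed the adjusted threshold with cabo or IL-27+cabo, and 6 were higher at an unadjusted p below 0.05 in each, against 4.54% and 7.36% of all genes. With IL-27 in SC tumors, 12 of 20 tested sarcomere genes and 1 of 4 myogenic genes rose in edgeR's test. Of 9 excitation genes 3 rose and 1 fell. Of the metabolic list 0 of 9 passed, and of the ligases 0 of 2, where 3.52% of all genes were called higher and 16.5% lower.

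The summed level of the tendon genes was 13.2 to 33.2 CPM in day 14 controls, 13.1 to 76.6 with IL-27, 109 to 162 with cabo and 37 to 124 with IL-27+cabo, and with cabo 3 of 6 rose (1.2% of all genes), namely Fmod (log2 fold change 4.27), Thbs4 (3.05) and Tnmd, which was at 0 in the controls. Across the 20 intratibial tumors r with the mean of the 39 members was 0.85 for tendon, 0.76 for smooth muscle, 0.74 for cardiac muscle, 0.57 for tumor epithelium, 0.36 for bone cells, 0.21 for nerve, -0.01 for marrow granules and -0.10 for adipocytes. In the last 7 of these lists 0 genes passed with cabo at day 14. In SC tumors, of 5 tested tendon genes 0 rose (3.52% of all genes) and Scx fell with IL-27 (log2 fold change -5.04, edgeR adjusted p = 0.0069, with 16.5% of all genes called lower), and Thbs4 had an estimate of 1.14; the summed level was 10.3 to 10.4 CPM in controls and 5.57 to 11 CPM with IL-27. The part of tendon, or of any of these cell types, in the result was not tested.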

How the data were processed

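Poly(A) RNA of 24 TC2Ras tumors was sequenced from stranded libraries. The authors deposited raw counts per gene for every tumor, with mouse Ensembl identifiers. The submitters' processing notes name FastQC, HISAT2, StringTie, DESeq2 and the build GRCh38, a human build that does not go with mouse identifiers. The counting program and its strand setting are not given in the sources used here. Of the values from 1 to 20, 30.4 to 35.5% per library were multiples of 4, so that counts divided by 4 were run as an alternative. Of the 55401 identifiers, 55141 were in GENCODE M21 and 260 were not. Another gene model overlaps 20 of the 39 members, whose counts are uncertain to that extent.

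Groups were taken from the labels. CPM were scaled by TMM over the 24 libraries, with a prior count of 2 for log2 values. Tests were edgeR 4.0.16 quasi-likelihood F tests (R 4.3.3, limma 3.58.1) after filterByExpr, with Benjamini-Hochberg adjustment over all genes tested and a threshold of 0.05. Day 14, SC and time comparisons used the groups compared, and EOS comparisons 1 fit of the 4 EOS groups. DESeq2 1.42.0, other scalings and filters, a fit of all 24 tumors, removal of the GC and length trend and leaving out each tumor were alternatives. Depth was 63729005 to 83782258 counts per library, and a gene at 0 was set at a floor of 3 counts. The fold bounds from this floor and the binomial intervals take the values as counts of single reads, which is not known. Each p-value sets a difference between groups against the spread between these tumors, with the spread of each gene moderated over all genes.

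Values in every tumor are given for 4 members of each role, and test values for at most 3 members higher and 3 lower, taken by p where the unadjusted p was below 0.05, in comparisons of groups and times. Up to 3 genes were named per further list. The 39 members, the lists and the tests were chosen with earlier results of these data known. Promoters are RefSeq windows on GRCm38.p6, which 26 members had. Where a gene had several, the window nearest the GENCODE gene start was used for members and that of lowest coordinate for the count over all genes.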

Additional observations from a re-analysis of the deposited data

How the results depend on the processing

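Directions of the members' median log2 fold changes held under every alternative other than leaving out a tumor. Left-out tumors reversed 4 medians, in 7 fits: day 14 IL-27 (-0.38 without mouse 8, range -0.38 to 4.74), EOS IL-27 (-0.01 without mouse 12 and -0.16 without control 9, range -0.16 to 0.56), the IL-27 interaction (0.50 without mouse 8, range -3.89 to 0.50) and the cabo interaction (-0.75, -1.24 and -0.01 without day 14 control 5, EOS cabo 19 and EOS control 9, range -1.24 to 1.43). Counts of members called were less stable. Day 14 cabo gave 5 with no filter on low counts and 1 with all 24 tumors in 1 fit, and 5 to 34 when a tumor was left out. Day 14 IL-27+cabo gave 32 by DESeq2, 1 with counts divided by 4, 1 with all 24 tumors in 1 fit and 0 to 9 without a tumor. DESeq2 called 24 for EOS cabo, 14 for EOS IL-27+cabo, 24 for any EOS difference, 11 for any day 14 difference, 36 for any difference among 8 groups (22 with counts divided by 4), 3 (control), 2 (IL-27), 4 (cabo) and, in the combination, 34 lower with time, and 1, 1 and 2 for the interactions. Leaving out a tumor gave 13 to 30 higher and 0 to 2 lower for SC, 0 to 3 for EOS cabo, 0 to 1 for any EOS difference, 0 to 32 lower with time under cabo, 0 to 21 for any day 14 difference, 1 to 35 for the 8 groups and 0 to 1 for the IL-27+cabo interaction. The SC count of members lower was 0 with the GC and length trend removed. The causes of these differences were not tested.

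Whether SC replicate numbers pair the tumors is not given in the sources used here. The deviations of same-numbered tumors correlated at r = 0.03 over 19360 genes, which with 2 tumors per group cannot decide it. The mean of the members was higher in tumor 1 than in tumor 2 of both groups (-0.85 and -2.08 in controls, 3.68 and 2.12 with IL-27). With a replicate block 30 members were higher, and with the block and the GC and length trend removed 28 were higher and 0 lower.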
